A study of Homo sapiens
Mus musculus with 24 samples.

Results

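The insulin, IGF and AMPK genes of the tumor were followed as 41 human genes, chosen by name as the receptors, adaptors, kinases, target proteins and IGF-binding proteins of these pathways. They are 41 of the 18880 human genes in the count table. All 41 were in the table, and all 41 passed the filter on low counts in the fits used here. The lowest counts among them belonged to GRB14 and DEPTOR, whose group means lay under 50 normalized counts.

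The tumors were xenografts of MDA-MB-231, a human triple-negative breast cancer line, each grown in a female B6/Rag1KO mouse, which lacks mature B and T cells. The mice were 14 weeks old at injection and had tumors of about 200 mm3 when treatment was assigned. CTRL mice (n = 4) ate a high-fat diet and received saline, Chemo mice (n = 5) ate the same diet and received doxorubicin with cyclophosphamide, MC mice (n = 5) ate the diet with a moringa seed concentrate, and MC + Chemo mice (n = 6) received both. Lean mice (n = 4) were injected with the same line, by the labels, and ate a low-fat diet. Every library is 1 tumor from 1 mouse and is named here by its group and mouse number. By the labels all tumors came from 1 line, so the line itself was not replicated. MC + Chemo 5 is labelled MC in 1 field and MC + Chemo in its title, and the title was used.

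Insulin and the insulin-like growth factors bind receptor tyrosine kinases, which recruit IRS adaptors and activate the lipid kinase PI3K. PI3K activates AKT, which restrains FOXO transcription factors and GSK3 and, through the TSC proteins and RHEB, releases the growth kinase mTOR. IGF-binding proteins hold the ligands outside the cell, and AMPK, the sensor of low energy, opposes mTOR. Breast cancer lines of this type commonly express the receptors of this system, and many of its steps are set by phosphorylation, which read counts do not measure.

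The 3′ libraries held 7796231 to 17621273 human counts, and human counts made up 47.8% to 74.0% of all counts of a tumor. Each member is given as a normalized count, which is the read count divided by the size factor of its library, so values compare tumors for 1 gene and not genes with each other. In bulk tumor RNA, fewer cells of a kind and less RNA per cell cannot be told apart. An extra column cleanup was applied to the RNA of 3 tumors (MC 41, MC 42 and Lean 3).

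Before any comparison, 2 of the 4 CTRL tumors stood apart. VIM, the mesenchymal filament protein vimentin, had 71918 and 50209 normalized counts in these 2, CTRL 17 and CTRL 44, against 4402 to 24619 in all other tumors. CDH1, the epithelial adhesion protein E-cadherin, had 2.73 and 312 in the same tumors and 2975 and 2880 in the other CTRL tumors, CTRL 31 and CTRL 70. MDA-MB-231 is known as a line without E-cadherin, so the CDH1 counts of the other 22 tumors, which were at 633 or more, went against the label. CTRL 17 and CTRL 44 were the lowest of the 24. Of the other genes that mark the line, CD44, EGFR, AXL, KRT18, LGALS1 and CAV1 were counted in every tumor and ESR1, the estrogen receptor the line lacks, had at most 8.27 CPM. Counts of calls against CTRL, and the fold changes of the genes described most fully, are therefore given with all 4 CTRL tumors and without CTRL 17 and CTRL 44, a choice made after seeing the data.

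**Figure D1:**
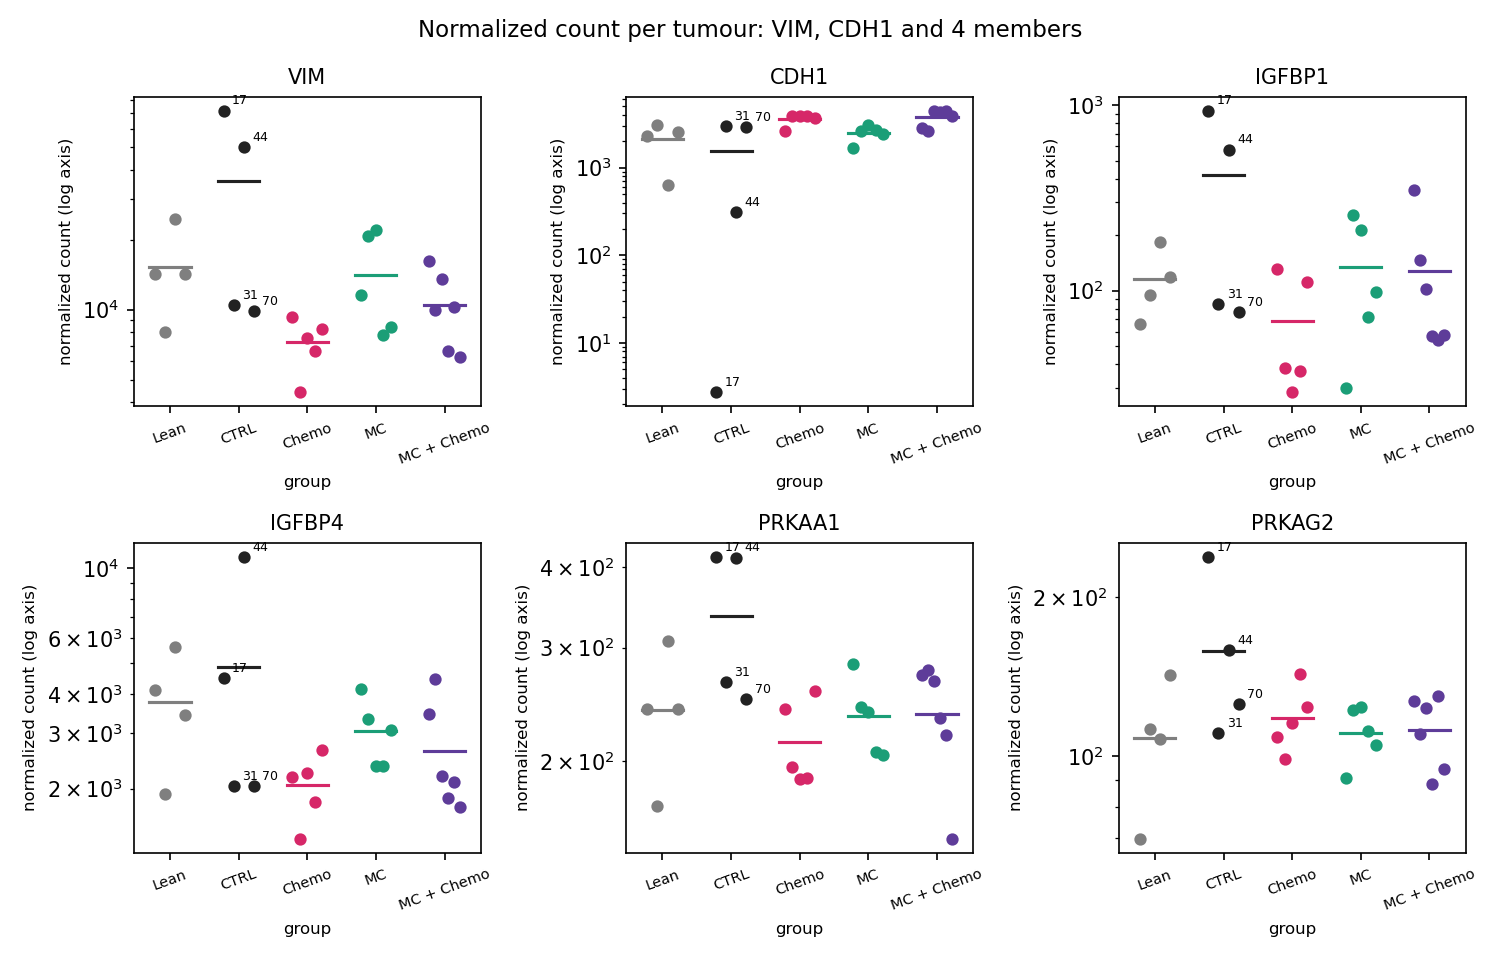
Normalized count (vertical log axis) of VIM, CDH1 and 4 members in each of the 24 tumors, by group, with bars at the group means and mouse numbers beside the CTRL tumors. CTRL 17 and CTRL 44 lie above every other tumor for VIM, IGFBP1, PRKAA1 and PRKAG2 and below every other tumor for CDH1.

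The comparisons with CTRL asked what each treatment, and leanness, did to the pathway in the tumor. By the edgeR quasi-likelihood test with Benjamini-Hochberg adjustment, 0 of the 41 members passed an adjusted p of 0.05 in any of the 4 groups set against CTRL. Over all genes tested the percentage called was 0 in Chemo, 0 in MC and 0 in Lean, and 2.09 (343 of 16434) in MC + Chemo. The lowest adjusted edgeR p of a member was 0.685 in Lean, 0.103 in Chemo, 0.100 in MC + Chemo and 0.406 in MC. DESeq2 called 3 members in Chemo (PRKAA1, IGFBP4 and IGFBP1) where it called 3.28% of all genes. In the other comparisons with CTRL it called 0 members, with 0.0106% of all genes in Lean, 0.0901% in MC and 6.75% in MC + Chemo. For limma voom the number of members called was 0 in each, with 5.95% of all genes called in MC + Chemo and 0% in the other 3.

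At an unadjusted p under 0.05, edgeR picked out 6 of the 41 members in Chemo (14.6%, against 18.2% of all genes), 5 in MC (12.2% against 10.7%), 9 in MC + Chemo (22% against 22.7%) and 4 in Lean (9.76% against 7.08%). The shares of members were close to those of all genes in each comparison. The median size of a member's log2 fold change was 0.15 in Lean, 0.23 in Chemo, 0.22 in MC + Chemo and 0.14 in MC, against 0.21, 0.27, 0.28 and 0.23 over all genes. These 4 comparisons share the CTRL tumors.

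Without CTRL 17 and CTRL 44, the members at an unadjusted p under 0.05 numbered 3 in Lean (7.32%, against 4.76% of all genes), 1 in Chemo (2.44% against 3.31%), 3 in MC + Chemo (7.32% against 11.8%) and 2 in MC (4.88% against 5.02%). At an adjusted p of 0.05 edgeR then called 0 genes of the whole table in any of the 4. Without the other pair, CTRL 31 and CTRL 70, it called 7 members in Lean (17.1%, against 15.6% of all genes), 12 in Chemo (29.3% against 26.9%), 10 in MC + Chemo (24.4% against 25.5%) and 10 in MC (24.4% against 19.6%). The number of genes called thus depended on which CTRL tumors entered.

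**Figure D2:**
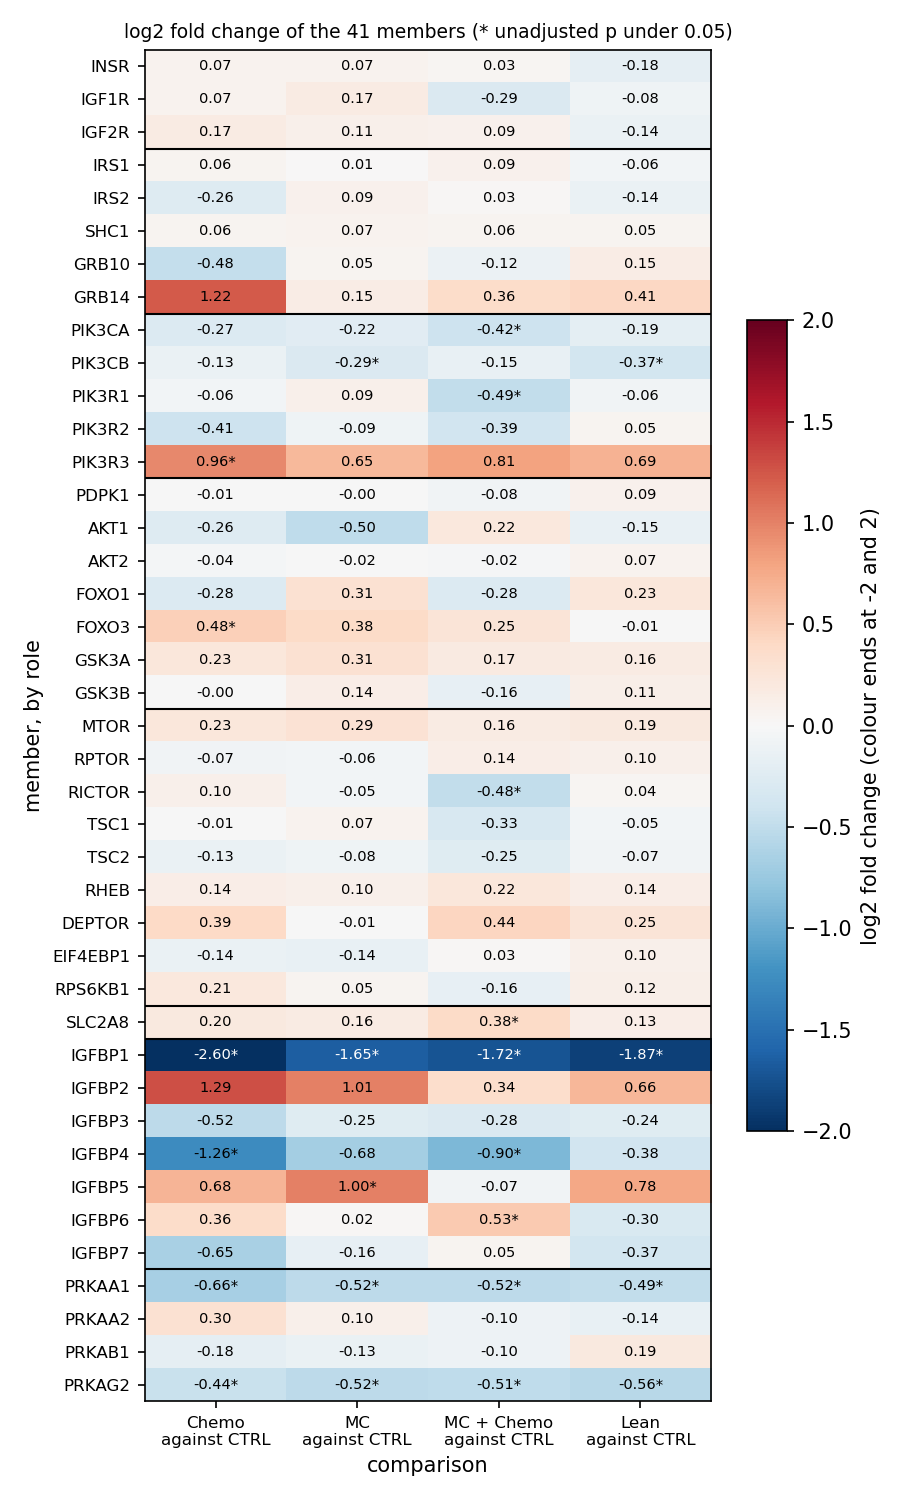
Log2 fold change (printed and coloured) of each of the 41 members, grouped by role from top to bottom, against CTRL in the columns Chemo, MC, MC + Chemo and Lean. An asterisk marks an unadjusted edgeR p under 0.05. IGFBP1, PRKAA1 and PRKAG2 carry one in all 4 columns, which share the CTRL tumors, and none passed after adjustment.

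The receptors varied little against CTRL. INSR, the insulin receptor, had group means from 426 ± 123 normalized counts in Lean (SD, n = 4) to 508 ± 108 in Chemo (n = 5). IGF1R, the receptor that carries most IGF signalling, ran from 287 ± 75.6 in MC + Chemo (n = 6) to 390 ± 43.6 in MC (n = 5). IGF2R, which clears IGF2 from the cell surface, ran from 872 ± 224 in Lean to 1076 ± 265 in Chemo. None of the 3 had an unadjusted p under 0.05 against CTRL in any group.

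The adaptors differed in size of change. IRS1, IRS2 and SHC1, which couple the receptors to PI3K and to RAS, had log2 fold changes against CTRL between -0.26 and 0.09 over all 4 comparisons. GRB10 and GRB14 bind the receptors and restrain them. GRB10 was at -0.48 in Chemo (edgeR adjusted p = 0.294), at -0.12 without CTRL 17 and CTRL 44 and at -0.74 without CTRL 31 and CTRL 70 (edgeR adjusted p = 0.0473). GRB14 was 2.33-fold higher there by value (edgeR adjusted p = 0.284). GRB14 was at 0 and 8.20 normalized counts in CTRL 44 and CTRL 17, and its log2 fold change without those tumors was 0.39.

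Among the PI3K subunits, the catalytic PIK3CB (ENSG00000051382) separated Lean from CTRL. Its normalized counts were 207, 233, 211 and 202 in the Lean tumors and 298, 261, 243 and 293 in the CTRL tumors. The 4 Lean tumors all lay below the 4 CTRL tumors, although the lowest CTRL tumor was CTRL 44, close to the highest Lean tumor. The means were 213 ± 13.8 and 274 ± 26.3 (two-sided exact permutation p = 0.0286, the smallest that 4 against 4 can give), and the log2 fold change was -0.37 with an SE of 0.12, the error given with every fold change below (edgeR adjusted p = 0.685). It was -0.37 without CTRL 17 and CTRL 44, so this difference did not rest on that pair. The MC tumors, at 199 to 236 normalized counts, also all lay below the 4 CTRL tumors. In MC, PIK3CB was at -0.29 (edgeR adjusted p = 0.449) and at -0.31 without that pair. In Lean it had the smallest unadjusted edgeR p of the 41 members. PIK3CB and the other members given with exact p-values below were picked for small edgeR p-values in these data. Their exact p-values are therefore not independent of that choice.

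PIK3R1 (ENSG00000145675), the main regulatory subunit, was lowest in MC + Chemo. Its normalized counts there ran from 215 over a median of 281 to 361, and the MC tumors had 441, 515, 402, 422 and 371. All 6 MC + Chemo tumors lay below all 5 MC tumors. The means were 289 ± 50.5 and 430 ± 54.1 (two-sided exact permutation p = 0.00433), with a log2 fold change of -0.58 ± 0.18 (edgeR adjusted p = 0.597). Against Chemo the value was -0.43 (edgeR adjusted p = 0.421) and against CTRL -0.49 (edgeR adjusted p = 0.136). It was -0.47 against CTRL without CTRL 17 and CTRL 44. PIK3CA, another catalytic subunit, was at -0.42 in MC + Chemo against CTRL (edgeR adjusted p = 0.153) and at -0.13 without that pair.

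The other regulatory subunits moved with the same CTRL tumors. PIK3R3 was at 47.4 and 54.4 normalized counts in CTRL 17 and CTRL 44 and at 279 and 182 in CTRL 31 and CTRL 70. Its log2 fold change in Chemo was 0.96 with all CTRL tumors (edgeR adjusted p = 0.255), 0.24 without the first pair and 2.44 without the second. PIK3R2 went the other way, with a mean of 375 in the first CTRL pair and 158 in the second.

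AKT and its targets gave few differences against CTRL. PDPK1, the kinase that activates AKT, and AKT2 stayed within a log2 fold change of 0.09 of CTRL in all 4 comparisons. AKT1 spread widely, from 286 to 959 normalized counts within Chemo and from 411 to 1172 within CTRL. GSK3A and GSK3B, kinases that AKT inactivates, had no unadjusted p under 0.05 against CTRL. In MC + Chemo against MC, AKT1, GSK3B and FOXO1 each had an unadjusted edgeR p under 0.05, and none passed after adjustment.

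FOXO1 (ENSG00000150907), a transcription factor that AKT keeps out of the nucleus, differed between MC + Chemo and MC. In MC + Chemo its normalized counts ran from 137 over a median of 160 to 227, and the MC tumors had 337, 295, 208, 240 and 224. Of the 6 MC + Chemo tumors, 4 lay below every MC tumor, and the groups overlapped. The means were 175 ± 35.7 and 261 ± 53.9 (two-sided exact permutation p = 0.0195), with a log2 fold change of -0.58 ± 0.16 (edgeR adjusted p = 0.597). Chemo alone had a FOXO1 mean of 174 ± 32.6, near that of MC + Chemo, and CTRL one of 209 ± 22.8. FOXO3, its close relative, was at 0.48 in Chemo against CTRL (edgeR adjusted p = 0.204) and at 0.13 without CTRL 17 and CTRL 44.

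In the mTOR group, RICTOR (ENSG00000164327), the defining subunit of mTORC2, was lowest in MC + Chemo. Its normalized counts ran there from 236 over a median of 423 to 467, against 448, 592, 667, 611 and 537 in the Chemo tumors. Of the 6 MC + Chemo tumors, 5 lay below every Chemo tumor, and 1 overlapped with the lowest Chemo tumor. The means were 382 ± 91.4 and 571 ± 82.9 (two-sided exact permutation p = 0.0108), with a log2 fold change of -0.58 ± 0.17 (edgeR adjusted p = 0.316). Against MC it was -0.44 (edgeR adjusted p = 0.597). Against CTRL it was -0.48 (edgeR adjusted p = 0.122), and -0.73 without CTRL 17 and CTRL 44, which had 425 and 433 normalized counts beside 684 and 570 in CTRL 31 and CTRL 70.

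RPS6KB1 (ENSG00000108443), the S6 kinase that mTORC1 activates, was likewise lower in MC + Chemo than in Chemo by value. The MC + Chemo tumors ran from 265 over a median of 286 to 349.5 normalized counts, and the Chemo tumors had 405, 357, 444, 396 and 332. The groups overlapped, with 4 of the 6 MC + Chemo tumors below every Chemo tumor. The means were 300.0 ± 37.8 and 387 ± 43.6 (two-sided exact permutation p = 0.0173), with a log2 fold change of -0.37 ± 0.10 (edgeR adjusted p = 0.308). The interaction of MC and Chemo, which asks whether the 2 treatments together differ from the sum of each alone, was -0.42 ± 0.16 for RPS6KB1 (edgeR adjusted p = 0.511).

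The other mTOR members gave no unadjusted p under 0.05 against CTRL. MTOR itself had 189 and 242 normalized counts in CTRL 44 and CTRL 17 and 362 and 398 in CTRL 31 and CTRL 70. RPTOR, the mTORC1 subunit, RHEB, the GTPase that switches mTOR on, and EIF4EBP1, the translation inhibitor that mTOR releases, lay within a log2 fold change of 0.22 of CTRL. DEPTOR, an inhibitor of mTOR, had at most 37.1 normalized counts in any tumor.

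**Figure D3:**
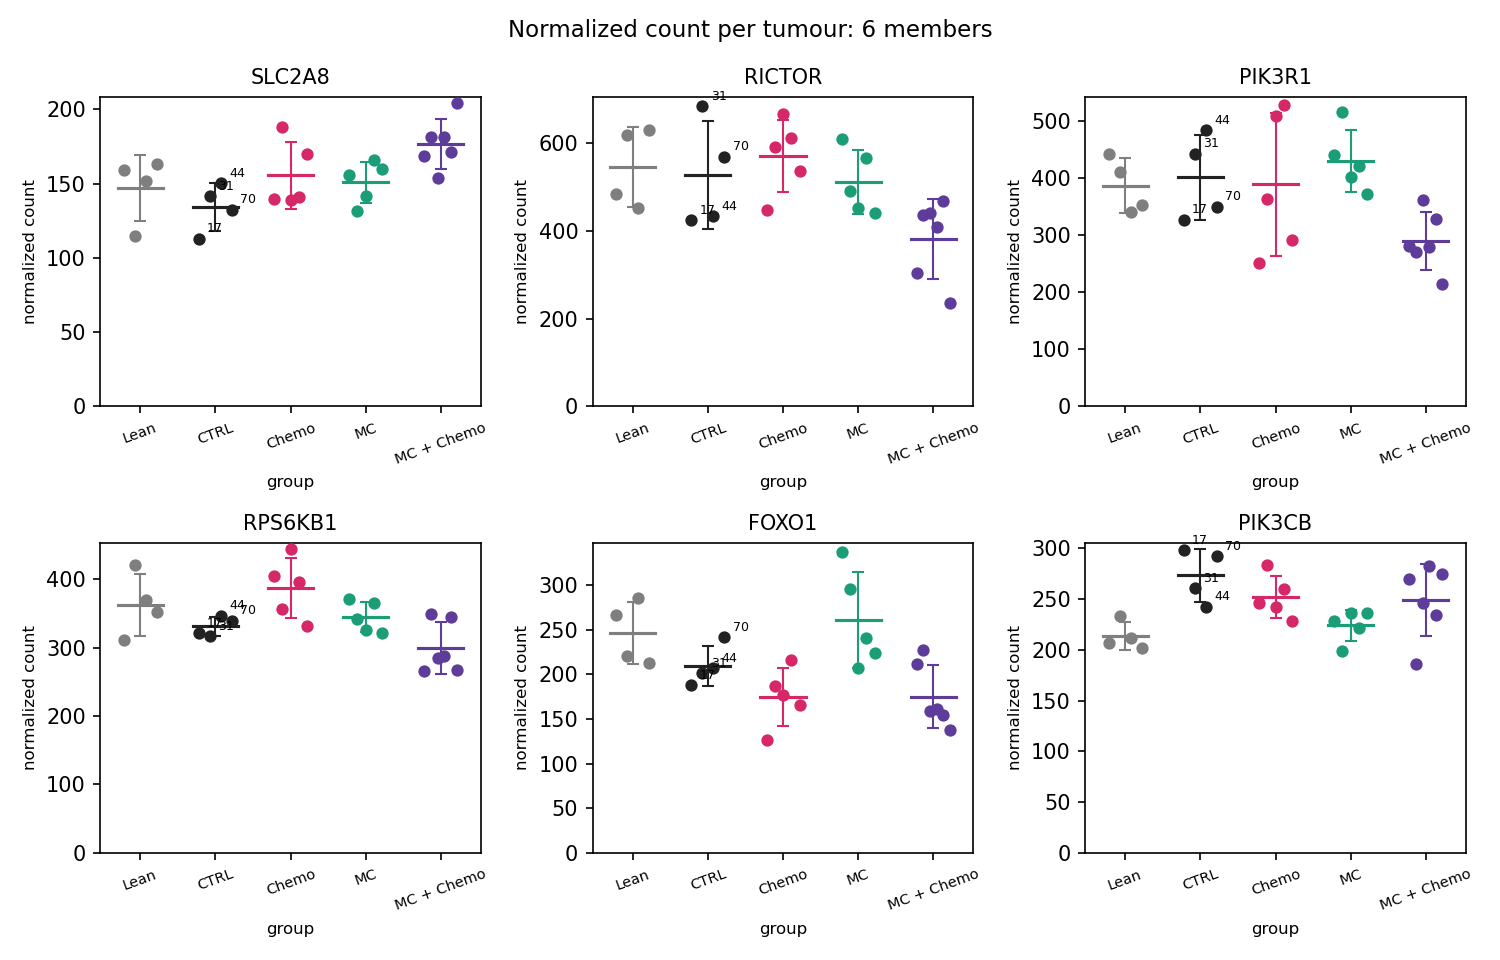
Normalized count (vertical axis from 0) of SLC2A8, RICTOR, PIK3R1, RPS6KB1, FOXO1 and PIK3CB in each of the 24 tumors, by group, with bars at the mean and whiskers of 1 SD. For SLC2A8 the 6 MC + Chemo tumors lie above the 4 CTRL tumors, and for PIK3R1 they lie below the 5 MC tumors.

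SLC2A8 (ENSG00000136856), the intracellular glucose transporter GLUT8, is 1 of the 2 members that the study names on these tumors, so its choice is not independent of its values. The MC + Chemo tumors ran from 154 over a median of 176 to 204 normalized counts, and the CTRL tumors had 113, 142, 150 and 133. All 6 MC + Chemo tumors lay above all 4 CTRL tumors. The means were 177 ± 16.9 and 134 ± 16.0 (two-sided exact permutation p = 0.00476, the smallest that 6 against 4 can give), with a log2 fold change of 0.38 ± 0.13 (edgeR adjusted p = 0.106, DESeq2 adjusted p = 0.0509). The size was 0.35 without CTRL 17 and CTRL 44 and 0.46 without CTRL 31 and CTRL 70. The Chemo mean was 156 ± 22.4 and the MC mean 151 ± 13.9, and the interaction of the treatments was 0.02 (edgeR adjusted p = 0.976).

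The IGF-binding proteins held the members with the widest range between tumors. IGFBP1 (ENSG00000146678), a binding protein that insulin represses in liver, is the other member that the study names. In CTRL 17 and CTRL 44 it had 937 and 577 normalized counts, and in CTRL 31 and CTRL 70 it had 84.5 and 76.5. The Chemo tumors had 131, 38.1, 28.3, 36.9 and 111. The Lean tumors had 65.8, 94.8, 182 and 118.

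CTRL 17 and CTRL 44 lay above all 20 tumors of the other groups for IGFBP1, whose highest value was 349, while CTRL 31 and CTRL 70 lay inside the range of every other group. The mean of the first pair was 9.41 times that of the second. With all CTRL tumors, the Chemo and CTRL means were 69.0 ± 48.1 and 419 ± 417 (two-sided exact permutation p = 0.0794), with a log2 fold change of -2.60 ± 0.76 (edgeR adjusted p = 0.107). With CTRL 31 and CTRL 70 alone as controls, the IGFBP1 value was 0.52 in Lean, -0.21 in Chemo, 0.66 in MC + Chemo and 0.74 in MC, beside -1.87, -2.60, -1.72 and -1.65 with them.

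IGFBP4 (ENSG00000141753), an inhibitor of IGF action, repeated the split between the CTRL pairs. It was at 4490 and 10889 normalized counts in CTRL 17 and CTRL 44, at 2040 and 2033 in CTRL 31 and CTRL 70, and at 2173, 1387, 2246, 1814 and 2650 in the Chemo tumors. CTRL 31 and CTRL 70 lay within the Chemo range, and the other pair above it. Unlike for IGFBP1, the highest tumor of the other groups, at 5616, lay above CTRL 17. The means were 2054 ± 476 in Chemo and 4863 ± 4180 in CTRL (two-sided exact permutation p = 0.127), with a log2 fold change of -1.26 ± 0.39 (edgeR adjusted p = 0.120). With CTRL 31 and CTRL 70 alone it was 0.00023.

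IGFBP5 (ENSG00000115461), a binding protein deposited in matrix, was highest in MC by mean. The MC tumors had 1417, 594, 824, 1260 and 782 normalized counts, the CTRL tumors 231, 695, 353 and 662, and the MC + Chemo tumors 120 over a median of 421 to 799. In MC, 4 of 5 tumors lay above every CTRL tumor, and the groups overlapped. The MC and CTRL means were 975 ± 347 and 485 ± 229 (two-sided exact permutation p = 0.0317), with a log2 fold change of 1.00 ± 0.43 (edgeR adjusted p = 0.441) and of 0.52 without CTRL 17 and CTRL 44. MC + Chemo against MC gave -1.07 ± 0.38 (edgeR adjusted p = 0.597), and the interaction was -1.76 ± 0.57 (edgeR adjusted p = 0.511).

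IGFBP7 (ENSG00000163453), a secreted protein with weak IGF binding, had separate levels within Chemo. The Chemo tumors had 1686, 1715, 1663, 3543 and 4450 normalized counts, and the MC + Chemo tumors ran from 3365 over a median of 4264 to 5300. The upper 2 Chemo tumors overlapped with MC + Chemo, and the other 3 lay far below it. The means were 2612 ± 1305 and 4238 ± 667 (two-sided exact permutation p = 0.0281), with a log2 fold change of MC + Chemo against Chemo of 0.70 ± 0.29 (edgeR adjusted p = 0.418).

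Of the other binding proteins, IGFBP6, which prefers IGF2, was at 0.53 in MC + Chemo against CTRL (edgeR adjusted p = 0.200) and at 0.92 without CTRL 17 and CTRL 44. IGFBP2, which binds both ligands, was at 1.29 in Chemo (edgeR adjusted p = 0.276) and at 0.61 without the same pair, and it had 2.73 normalized counts in CTRL 17. IGFBP3, the main carrier of IGFs in blood, had no unadjusted p under 0.05 in any comparison.

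The AMPK subunits split by gene. PRKAA1 (ENSG00000132356) encodes the catalytic subunit alpha 1. It was at 415, 265, 413 and 249.7 normalized counts in CTRL 17, 31, 44 and 70, at 241, 196, 188, 188 and 257 in the Chemo tumors and at 283, 242, 238, 206 and 205 in the MC tumors. MC + Chemo ran from 152 over a median of 249.5 to 277. CTRL 17 and CTRL 44 lay above all 20 tumors of the other groups, whose highest was 307, and the other CTRL tumors lay within them.

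For PRKAA1, CTRL had a mean of 336 ± 90.6, Chemo of 214 ± 32.7, MC of 235 ± 32.0 and MC + Chemo of 236 ± 47.5, and each treated group against CTRL gave a two-sided exact permutation p of 0.0238, 0.0556 and 0.0714. The log2 fold changes were -0.66 ± 0.19 in Chemo, -0.52 ± 0.19 in MC and -0.52 ± 0.18 in MC + Chemo (edgeR adjusted p = 0.103, 0.406 and 0.100). Leaving out CTRL 17 and CTRL 44, they were -0.28, -0.14 and -0.14. The second catalytic subunit, PRKAA2, had a mean of 469 ± 49.0 in Chemo and 356 ± 39.4 in MC + Chemo (log2 fold change -0.40, edgeR adjusted p = 0.421).

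PRKAG2 (ENSG00000106617), a regulatory subunit that binds AMP, was at 239, 110, 159 and 126 normalized counts in CTRL 17, 31, 44 and 70. It was at 90.7, 122, 124, 111 and 105 in the MC tumors and at 69.7, 113, 108 and 143 in the Lean tumors. CTRL 17 and CTRL 44 again lay above all 20 tumors of the other groups, whose highest was 143, and CTRL 31 and CTRL 70 did not. The means were 158 ± 57.3 in CTRL, 111 ± 13.6 in MC (two-sided exact permutation p = 0.0476) and 108 ± 29.9 in Lean (exact p = 0.171).

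The log2 fold changes of PRKAG2 against CTRL were -0.56 ± 0.22 in Lean, -0.52 ± 0.20 in MC and -0.51 ± 0.19 in MC + Chemo (edgeR adjusted p = 0.685, 0.416 and 0.120). Without CTRL 17 and CTRL 44 they were -0.13, -0.10 and -0.09. PRKAB1, the scaffold subunit beta 1, had means between 172 and 222 normalized counts in the 5 groups and no unadjusted p under 0.05.

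**Figure D4:**
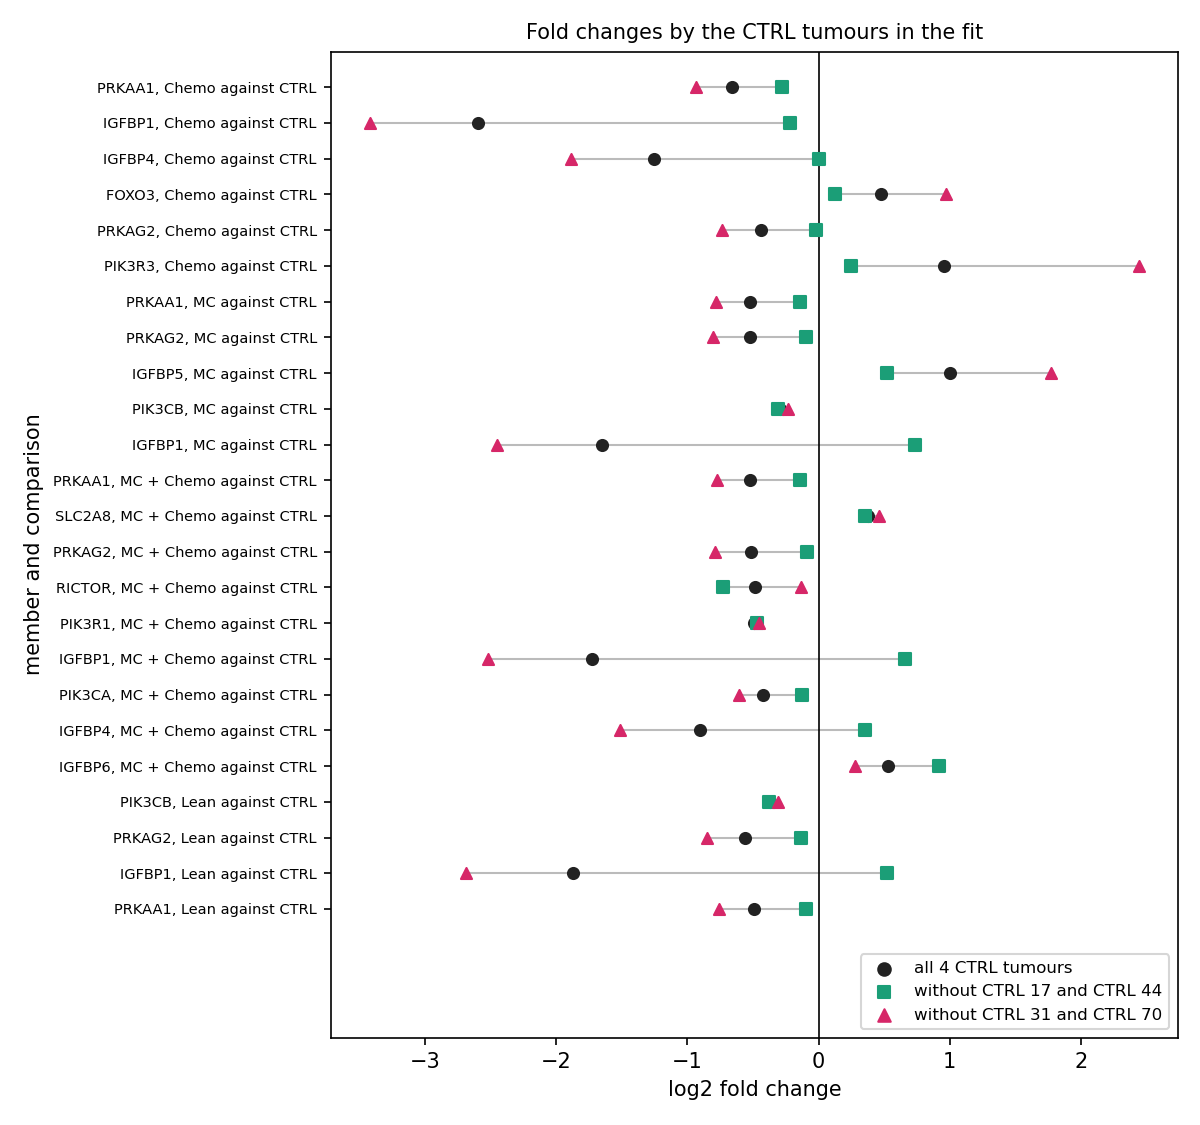
Log2 fold change (horizontal axis) of each member and comparison with CTRL that had an unadjusted edgeR p under 0.05, with all 4 CTRL tumors (circles), without CTRL 17 and CTRL 44 (squares) and without CTRL 31 and CTRL 70 (triangles). IGFBP1 moves from -2.60 to -0.21 in Chemo without CTRL 17 and CTRL 44, while for SLC2A8, PIK3R1 and PIK3CB the 3 marks lie close together.

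Across the 41 members, 14 had both CTRL 17 and CTRL 44 above both CTRL 31 and CTRL 70, and 7 had both below. Together these are 51.2% of the members, against 57.5% of 14928 human genes with a mean normalized count over about 10. The share of members was below that of all genes. SLC2A8, PIK3CB and PIK3R1 were not among the 21.

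In the 22 tumors other than CTRL 17 and CTRL 44, pooled over all groups, members still varied with VIM and CDH1. Relations within groups were not computed, so differences between groups can enter these values. Over 94 such relations on the log2 scale, VIM gave a Benjamini-Hochberg adjusted permutation p of Pearson's r under 0.05 with 7 members. Of these, 5 were positive (GRB10, IGFBP1, IGFBP3, IGFBP4 and PRKAA1) and 2 negative (PIK3R3 and FOXO3). For Spearman's rho with VIM, the adjusted permutation p was over 0.05 for IGFBP3 (0.0910) and FOXO3 (0.0792). For IGFBP1 and VIM, Pearson's r was 0.70 and Spearman's rho 0.65 (permutation p = 0.00030 and 0.00118, adjusted 0.00366 and 0.0101), and r was 0.65 without the 2 tumors farthest from the median of VIM. For PRKAA1 and VIM, r was 0.65 and rho 0.70 (permutation p = 0.00113 and 0.00055, adjusted 0.00817 and 0.00517), and r was 0.57 without the farthest 2. CDH1 gave such a p with 9 members, of which GRB10 had the strongest r, -0.81 (rho -0.76, permutation p = 1e-05 and 8e-05, adjusted 0.00047 and 0.00150, the first p being the smallest 100000 permutations can give), and -0.63 without the farthest 2. For rho with CDH1, the adjusted permutation p was over 0.05 for INSR (0.0516), IGF2R (0.132), PIK3R3 (0.0792), FOXO3 (0.0792) and PRKAB1 (0.214). PIK3CB passed with CDH1 by rho (0.0279) and not by r (0.0990). The share of all genes with such a p was not computed, so these counts do not set the members apart from other genes. VIM and CDH1 were named after their values were seen. The part of these markers in the group differences was not tested.

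The comparisons among treated groups did not involve CTRL and asked what adding 1 treatment to the other changed. In MC + Chemo against MC, edgeR called 0 of 41 members and 0 of 16434 genes (0%), and 9 members had an unadjusted p under 0.05 (22%, against 7.95% of all genes). DESeq2 called 0 members there (0.0424% of all genes), and limma voom 0. The 9 were FOXO1, PIK3R1, IGFBP5, TSC1, IGF1R, GSK3B and RICTOR, lower in MC + Chemo by value, and AKT1 and IGFBP6, higher by value. Of all genes, 4.64% were lower and 3.3% higher at that p. TSC1, the partner of TSC2 in restraining mTOR, was at -0.40, IGF1R at -0.45 and GSK3B at -0.30 (edgeR adjusted p = 0.597 for each). AKT1 was at 0.72, with means of 812 ± 124 and 489 ± 173 (edgeR adjusted p = 0.601).

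In MC + Chemo against Chemo, edgeR called 0 of 41 members and 0% of all genes, and DESeq2 (0.101% of all genes) and limma voom called 0 members. Unadjusted, 5 members were under 0.05 (12.2%, against 10.4% of all genes), namely RPS6KB1, RICTOR, PIK3R1 and PRKAA2 at lower values (7.13% of all genes) and IGFBP7 at a higher one (3.29%). The interaction also gave 0 members by edgeR, DESeq2 (0.0106% of all genes) and limma voom, and 0% of all genes by edgeR, with 8 members under an unadjusted 0.05 (19.5%, against 9.74%). Its lowest adjusted edgeR p was 0.511, and it uses the CTRL tumors. Without CTRL 17 and CTRL 44, the interaction had 3 members under an unadjusted 0.05 (7.32%, against 3.42% of all genes), namely RPS6KB1, IGFBP5 and GSK3A.

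A single MC + Chemo tumor held many of the low values. MC + Chemo 52 was the lowest of all 24 tumors for 9 members (GRB10, GSK3B, IGF1R, IGFBP5, PIK3CA, PIK3R1, PRKAA1, RICTOR and TSC1), or 22%, and the lowest for 14.1% of all human genes over the same minimum. It was also the highest for 5 members, SLC2A8 among them. Its murine counts held 1.77% adipocyte transcripts, the highest of the 24 tumors, and 0.0168% endothelial transcripts, where only CTRL 17 was lower. Without MC + Chemo 52, the same 7 members stayed at an unadjusted p under 0.05 and below 0 against MC (17.1%, against 4.25% of all genes), and AKT1 and IGFBP6 did not. With MC + Chemo 5 taken as MC, 5 members remained there (12.2%, against 7.19%), of which 4 were lower in MC + Chemo.

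Genes of the pathway outside the 41 members were taken from lists of 110 ligands, adaptors, phosphatases, kinases, mTOR and AMPK regulators, glucose transporters and FOXO targets, of which 104 were in the table and tested. In MC + Chemo against CTRL, 3 of the 104 passed (2.88%, against 2.09% of all genes), 2 higher and 1 lower, and 0 passed in every other comparison by edgeR. At an unadjusted p under 0.05 the 104 gave 8 genes in Lean (7.69%, against 7.08% of all genes), 20 in Chemo (19.2% against 18.2%), 23 in MC + Chemo (22.1% against 22.7%) and 8 in MC (7.69% against 10.7%). Insulin and IGF ligands gave no call, and neither did the 26 mTOR genes, the 14 AMPK genes or the 6 glucose transporters tested.

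PIK3CG, a catalytic PI3K subunit best known in leukocytes, was counted with few reads. Its normalized counts were 10.9, 4.33, 38.8 and 10.5 in CTRL 17, 31, 44 and 70 and 4.06, 3.53, 10.3, 4.12 and 2.73 in the MC tumors, which had 2 to 17 reads each. The groups overlapped (two-sided exact permutation p = 0.0476), and the log2 fold change was -1.60 ± 0.59 (edgeR adjusted p = 0.406). With CTRL 31 and CTRL 70 alone as controls, it was -0.52.

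SOD2, the mitochondrial superoxide dismutase and a FOXO target, rose in MC + Chemo. The MC + Chemo tumors ran from 1149 over a median of 1330 to 1999 normalized counts, and the CTRL tumors had 703, 832, 468 and 1122. The groups did not overlap (two-sided exact permutation p = 0.00476), and the log2 fold change was 0.86 ± 0.19 (edgeR adjusted p = 0.0364). Leaving out CTRL 17 and CTRL 44, it was 0.54 (edgeR adjusted p = 0.311).

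ENPP1, an ectoenzyme that inhibits the insulin receptor, fell in MC + Chemo with a log2 fold change of -2.57 ± 0.61 (edgeR adjusted p = 0.0393). Its CTRL tumors had 751, 293, 3129 and 150 normalized counts, and the MC + Chemo tumors ran from 53.9 over a median of 156 to 365. CTRL 31 and CTRL 70 lay inside the MC + Chemo range, and without the other pair the value was -0.27 (edgeR adjusted p = 0.860). HTRA1, a secreted protease that cleaves IGF-binding proteins, was at -2.16 in Chemo (edgeR adjusted p = 0.0764) and at -0.58 without that pair. BNIP3, a mitophagy receptor and FOXO target, was at -0.80 in Lean (edgeR adjusted p = 0.685) and at 0.12 without it.

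FOXO6, an AKT-regulated transcription factor, rose in MC + Chemo by the human counts. The MC + Chemo tumors ran from 85.6 over a median of 112 to 153 normalized counts, and the CTRL tumors had 52, 80.1, 40.6 and 42.8. The groups did not overlap (two-sided exact permutation p = 0.00476), and the log2 fold change was 1.04 ± 0.25 (edgeR adjusted p = 0.0393). With CTRL 31 and CTRL 70 alone as controls it was 0.87 (edgeR adjusted p = 0.307). However, the human FOXO6 count of each tumor was 100% to 113% of its murine Foxo6 count, 2250 against 2183 reads over the 24 tumors, while human reads made up between 47.8% and 74.0% of a tumor's counts. The human and murine values of this gene are thus nearly the same number, and the study names the murine gene on these tumors.

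The same check was made for the members, because murine host tissue shares the library and the sources used here do not say how reads fitting both genomes were assigned. Of the 41 members, 40 have a murine gene of the same symbol, and 14 had fewer human than murine counts. Across 24 tumors the median Pearson r of human with murine log2 values was 0.47 over these members and 0.41 over 10150 gene pairs. IGFBP5 was the closest pair among members. Its human count was 15.2% to 23.6% of the murine count in every tumor, with r = 0.90 and rho = 0.83 (permutation p = 1e-05 and 2e-05, the first being the smallest possible), and r = 0.77 without the 2 farthest tumors. Of the 10150 gene pairs, 2.75% had an r at or above that of IGFBP5 over the 24 tumors.

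For IGFBP2 the human count was 41.8% of the murine count over all tumors, with r = 0.86 and rho = 0.90 (permutation p = 1e-05 for both) and r = 0.87 without the 2 farthest. For PIK3R1 r was 0.80 and rho 0.87 (permutation p = 1e-05 for both), and r was 0.83 without the 2 farthest. Of the 10150 gene pairs, 5.01% had an r at or above that of IGFBP2, and 10.7% at or above that of PIK3R1. Murine Pik3r1 ran from 519 to 649 normalized counts in MC + Chemo and from 691 to 911 in MC, so these groups did not overlap in the murine table either. Its log2 fold change was -0.42 ± 0.19 (edgeR adjusted p = 0.492), beside -0.58 for human PIK3R1. In the murine table, Igfbp5 in MC + Chemo against MC was at -0.90 ± 0.37 (edgeR adjusted p = 0.484), beside -1.07 for the human gene. Murine Rictor was at -0.57 ± 0.16 in MC + Chemo against Chemo (edgeR adjusted p = 0.246), beside -0.58 for human RICTOR. Human IGFBP4 differed from these, with r = -0.44 and rho = -0.46 (permutation p = 0.0351 and 0.0256, adjusted 0.0621 and 0.0535), and r = -0.33 without the 2 farthest. IGFBP1 had no murine namesake in the table used here. After adjustment over the 46 pairs of this family, 19 members kept a permutation p of r under 0.05, all with a positive r. The shares of all gene pairs with such a p, or with fewer human than murine counts, were not computed. How far murine reads enter the human counts was not tested.

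**Figure D5:**
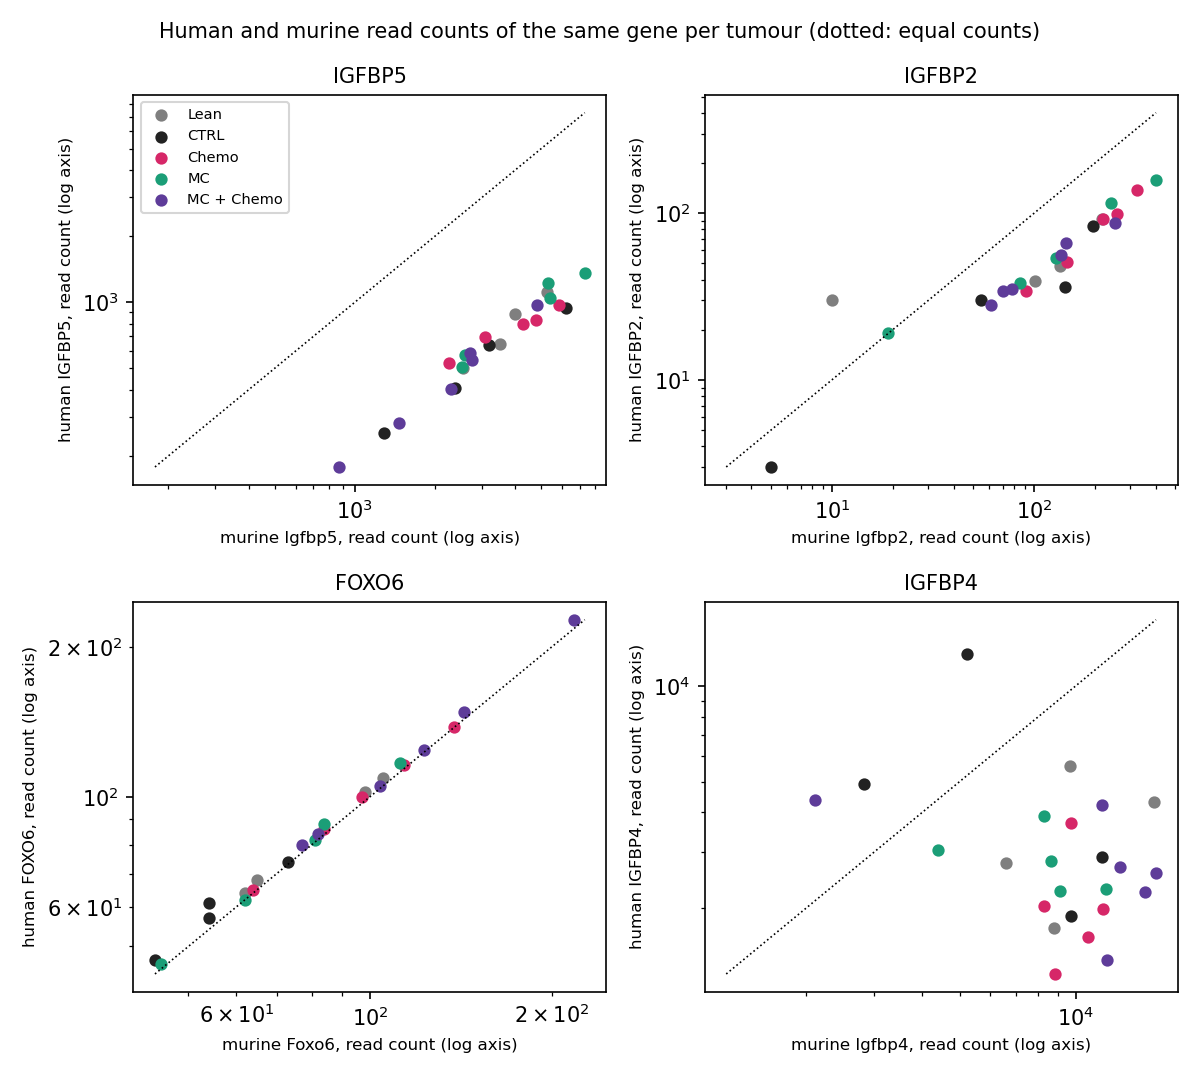
Human read count (vertical log axis) against the murine read count of the gene with the same symbol (horizontal log axis) in each of the 24 tumors, coloured by group, with a dotted line of equal counts. FOXO6 lies on the line, IGFBP5 lies parallel to it at 15.2% to 23.6% of the murine count, and IGFBP4 follows no such line.

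The host content of the tumors also differed. Skeletal muscle transcripts (12 genes, all in the table) made up 0.00244% to 1.43% of murine counts in MC + Chemo and at most 0.00400% in CTRL. They reached 0.591% in MC, 0.0669% in Chemo and 0.0182% in Lean. Adipocyte transcripts (10 of 10 genes) ran from 0.0157% to 1.77% in MC + Chemo and from 0.00699% to 0.166% in CTRL. They reached 1.03% in MC, 0.169% in Chemo and 0.408% in Lean. Endothelial transcripts (8 of 8) ran from 0.0101% to 0.0839% in CTRL, fibroblast transcripts (7 of 7) from 0.979% to 2.75% and macrophage transcripts (7 of 7) from 0.402% to 0.474%. In MC + Chemo these ran from 0.0168% to 0.0653%, from 0.754% to 2.20% and from 0.341% to 0.611%. Their part in the member values was not tested.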

How the data were processed

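RNA of 24 tumors was made into QuantSeq 3′ libraries and read forward at 50 bp. The deposited read counts per gene, 1 table for human and 1 for murine genes, came from the authors' BlueBee alignment. The deposited normalized signal is these counts divided by DESeq2 size factors over all 24 libraries (DESeq2 1.22.2 in the submitters' processing notes). Those notes name GRCm38. The human build and the handling of reads fitting both genomes are not given in the sources used here. No human gene had a sum under 72.

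The 41 members, the other gene lists and the tests were chosen with earlier results of these data known. SLC2A8 and IGFBP1 are named by the study. Full values are given for members with an adjusted p under 0.05 or among the 3 smallest unadjusted p of a comparison, for SLC2A8 and IGFBP1, and for other pathway genes that passed or were among the first 2 of a comparison with CTRL. A gene of the lists is not reported here. VIM, CDH1 and other members were named after their values were seen.

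Human counts were tested with the edgeR 4.0.16 quasi-likelihood F test in R 4.3.3 (TMM, filterByExpr), fitted to 20 tumors, and to 24 for Lean. Adjusted p-values are Benjamini-Hochberg over 16434 genes, or 16588 for Lean. The murine table was fitted likewise. Alternatives were DESeq2 1.42.0, limma 3.58.1 (voom), other scalings, no filter, pairs of groups alone, tumors left out and the other label of MC + Chemo 5. Exact permutation tests, two-sided, compare mean log2 (normalized count + 1). Correlations used 100000 permutations. The fits were tested on simulated data with the same spread for every gene and no split within CTRL. That test therefore does not cover the split of the CTRL tumors seen here. Of 47 pairs of libraries within groups, 0 were identical. A p-value measures the spread between tumors of different mice.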

Additional observations from a re-analysis of the deposited data

Results flagged for a closer look

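In 90 groups of 4 to 6 tumors, 18 genes in 5 groups each, 3 tumors lay far outside the rest of their group. Chance gives about 1 in 20 groups, so 3 in 90 is not more than chance gives. ENPP1 was at 143 normalized counts in MC 48 and at 298 to 367 in the other MC tumors. PIK3CG was at 10.3 in MC 42, a tumor with the extra RNA cleanup, and at 2.73 to 4.12 in the other MC tumors. SOD2 was at 1201 in MC 41, also a tumor with the extra RNA cleanup, and at 893 to 971 in the other MC tumors. Murine Sod2 in MC had a median of 390 normalized counts and a highest value of 3978. How far murine reads enter this human value was not tested. No such tumor was found for the 12 members given with full values.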

How the results depend on the processing

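No paired analysis was possible because the mouse numbers are unique and no groups share any. The count of members called, 0 in each comparison, became 3 under DESeq2 in Chemo against CTRL. Without CTRL 31 and CTRL 70 it became 12 (Chemo), 10 (MC), 10 (MC + Chemo), 10 (interaction, 24.4% against 17.6% of all genes) and 7 (Lean). Leaving out 1 tumor at a time gave 0 to 6 in Chemo against CTRL (6 without CTRL 31, 14.6% against 8.73% of all genes, and 3 without CTRL 70, 7.32% against 4.47%) and 0 to 2 in MC + Chemo against CTRL (2 without CTRL 31, 4.88% against 8.94%, and 1 without CTRL 70, 2.44% against 6.77%), and 0 in the other comparisons. Without CTRL 17 and CTRL 44 the sign changed for 47 of the 164 log2 fold changes of members against CTRL, which had a median size of 0.19 before. Among them were IGFBP1 in MC (0.74), MC + Chemo (0.66) and Lean (0.52) and IGFBP4 in Chemo (0.00023). Outside the members it changed for ENPP1 in MC (0.40) and BNIP3 in Lean (0.12), among others. The cause was not tested. In MC + Chemo, ENPP1 lost its call in 11 of 20 alternatives, SOD2 in 8 and FOXO6 in 9. Their log2 fold changes with 1 tumor left out ran from -2.93 to -1.08, from 0.70 to 1.08 and from 0.93 to 1.29. Leaving out CTRL 17, CTRL 44 or MC + Chemo 43, 47, 50 or 52 ended each of these 3 calls (edgeR adjusted p between 0.0502 and 0.245), and that of ENPP1 also ended without MC + Chemo 5. PIK3CG in MC ran from -2.13 to -0.69 (-0.69 without CTRL 44) and passed without CTRL 31 and CTRL 70 (-2.17, edgeR adjusted p = 0.0169). SLC2A8 in MC + Chemo ran from 0.30 to 0.46, with adjusted p between 0.0509 and 0.420 over all alternatives. The choices of pairs of CTRL tumors were added after seeing the data. The coefficient of variation of a member within CTRL ran from 4.28% to 105% with 4 tumors, which limits the differences that could be detected.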
